A study of Mus musculus with 4 samples.

Results

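The 8 genes described here encode the proteins that start the cell cycle in G1 and the inhibitors that hold it back. They are the D cyclins Ccnd1, Ccnd2 and Ccnd3, the cyclin-dependent kinases Cdk4 and Cdk6, and the CDK inhibitors Cdkn1a (p21), Cdkn1b (p27) and Cdkn2c (p18). They were taken by name, 8 of the 18767 genes measured, and followed over the 824 of 991 deposited cells with more than 1200 detected genes. The cells came from mouse aortas, dissected from the root to the iliac arteries, digested with enzymes and sorted as CD31+ CD45- TO-PRO-3- cells, a gate for living endothelial cells (EC). They were sequenced by SORT-seq, a plate method in which each cell is sorted into its own well and each transcript molecule is tagged at its 3′ end with a unique molecular identifier (UMI).

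Of the 4 libraries, s001 and s002 are labelled Jag1 ECKO and s003 and s004 are labelled Jag1 ECWT. Jag1 ECKO mice have both Jag1 alleles floxed (Jag1fl/fl) and carry a Cdh5-CreERT2 transgene, so that tamoxifen removes the gene in cells that express Cdh5. The controls are also Jag1fl/fl but without Cre, and both genotypes are on a C57BL/6J background. Per the study's methods the mice were young males, matched for age between the genotypes. The sources used here do not give how many mice were pooled or whether the libraries of a label came from separate mice, so p-values measure only the spread between these libraries, which may be technical. The kept cells of s001 to s004 numbered 202, 236, 140 and 246, and held 1016053, 1779042, 859280 and 1492191 counts.

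Jag1, the targeted gene, went against the labels. Per 1000000 counts of a library (CPM) it gave 158 and 70.8 under the Jag1 ECKO label and 32.6 and 26.1 under the Jag1 ECWT label, higher in both libraries labelled Jag1 ECKO (log2 difference 1.96, SE 0.37, adjusted p = 0.428 by edgeR's quasi-likelihood test). The sources used here do not say which part of Jag1 is floxed, and 3′ counts outside that part cannot check the labels. The study describes its own checks of the deletion, by qRT-PCR and by staining of the aorta, on material other than these cells, which are not analysed here; the libraries are called by their labels throughout. All 10 EC markers were detected over the 4 libraries together, and their sum was 9602 to 10991 CPM per library. Red blood cell and leukocyte markers summed to at most 6.03 CPM per list. Only 3 of the 5 red blood cell genes and 4 of the 7 leukocyte genes of these lists are in the table; a haemoglobin gene that was not listed, Beta-s, had 85 counts in s001 (83.7 CPM) and 0 in the other libraries. Smooth muscle markers summed to 3543, 1532, 396 and 1236 CPM in s001 to s004, markers of capillary or lipid-handling EC to 852, 250, 218 and 199 CPM, and genes of the dissociation response to 3931, 2242, 2360 and 2159 CPM. Library s001 was the highest of the 4 in all 3 of these lists. Of the 355 well barcodes among the kept cells, 278 occurred in at least 2 libraries, and 47 in all 4.

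In the resting endothelium of an adult artery nearly all cells are out of the cycle. A D cyclin binds CDK4 or CDK6, and the active kinase phosphorylates the retinoblastoma protein and so frees the E2F factors that switch on the genes of DNA replication. The CDK inhibitors set the threshold: p21 and p27 bind cyclin-CDK complexes of several kinds, while p18 belongs to the INK4 family and binds CDK4 and CDK6 themselves. Ccnd1, Ccnd2, Ccnd3, Cdk4 and Cdk6 are called drivers below and Cdkn1a, Cdkn1b and Cdkn2c brakes. Much of the control of these proteins, p27 and the D cyclins included, acts on their stability, which RNA counts do not show.

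On the mouse genome GRCm38 (GENCODE annotation) Ccnd1 lies at chr7:144929931-144939925 and Ccnd2 at chr6:127125162-127152193, both on the minus strand. Ccnd3 lies at chr17:47505051-47599691, Cdk4 at chr10:127063534-127067920 and Cdk6 at chr5:3341485-3531008, all on the plus strand. Cdkn1a lies at chr17:29090976-29100727 and Cdkn1b at chr6:134920401-134925513 on the plus strand, and Cdkn2c at chr4:109660876-109667189 on the minus strand. Some of these genes overlap a gene on the other strand that is also in the table: 641 bases of Cdk4 are shared with Tspan31, 361 bases of Ccnd3 with Bysl and 2805 bases of Ccnd2 with 9330179D12Rik. The sources used here do not say whether the counting used strand, so reads of such partners may not be told apart.

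Ccnd2, which encodes cyclin D2, was by far the most abundant of the 8 genes. Its level in s001 to s004 was 377, 422, 443 and 468 CPM, with a mean of 428 ± 38.8 CPM (SD, n = 4 libraries). Its rank by mean CPM was 280 among 18508 genes with a count. A count of Ccnd2 was seen in 66.8%, 78.4%, 76.4% and 81.3% of the cells of s001 to s004, and cells with 3 or more counts, 329 in all, held 80.7% of its counts. Such shares grow with depth, which differed between libraries: with each cell thinned to 2500 counts they were 51.8%, 56.2%, 59.4% and 62.8%. Each count stands for 1 molecule tagged at its 3′ end, so levels were compared between genes in CPM without correction for transcript length.

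Ccnd1, which encodes cyclin D1, stood at 107, 106 and 113 CPM in s001, s002 and s003, and at 48.3 CPM in s004. Library s004 stood at less than the others by a wide margin, while its partner under the same label was the highest. The mean was 93.5 ± 30.3 CPM, and 26.7%, 33.9%, 30% and 17.9% of cells had a count. Ccnd3 (cyclin D3) was the least abundant D cyclin at 34.4, 20.8, 33.7 and 22.8 CPM, and was seen in 12.5% of all kept cells.

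Of the kinases that D cyclins activate, Cdk4 was found at 86.6, 111, 94.3 and 82.4 CPM in s001 to s004, a mean of 93.6 ± 12.7 CPM. Cdk6, the other partner of the D cyclins, gave 19 counts in all 824 cells, namely 4, 10, 1 and 4 in s001 to s004. At 3.35 ± 1.89 CPM it was the lowest of the 8 genes in every library, and values of single libraries rest on so few counts that no order between them can be read.

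Among the brakes, Cdkn1b led with 158, 84.3, 121 and 119 CPM in s001 to s004 (mean 121 ± 30.3 CPM), and 40.0% of all kept cells had a count. Cdkn1a gave 60.0, 50.03, 40.7 and 75.7 CPM (mean 56.6 ± 15.0 CPM) and was seen in 17.5% of cells. A single cell of s004 held 25 counts of Cdkn1a, 22.1% of that library's, and without it s004 stood at 59.5 CPM. A single cell of s003 held 9 counts, 25.7% of that library's, and without it s003 stood at 30.4 CPM. Cdkn2c was scarce, at 15.7, 7.87, 18.6 and 8.71 CPM, with a count in 6.07% of cells.

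At an equal depth of 2500 counts the share of cells with a count was lower for every member. Its mean over the 4 libraries was 57.5 ± 4.69% for Ccnd2, 15.5 ± 4.29% for Ccnd1, 6.13 ± 2.01% for Ccnd3 and 19.2 ± 2.69% for Cdk4. Among the brakes it was 23.3 ± 4.77% for Cdkn1b, 10.1 ± 2.52% for Cdkn1a and 3.21 ± 1.26% for Cdkn2c, and for Cdk6 it was 0.69 ± 0.47%.

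**Figure D1:**
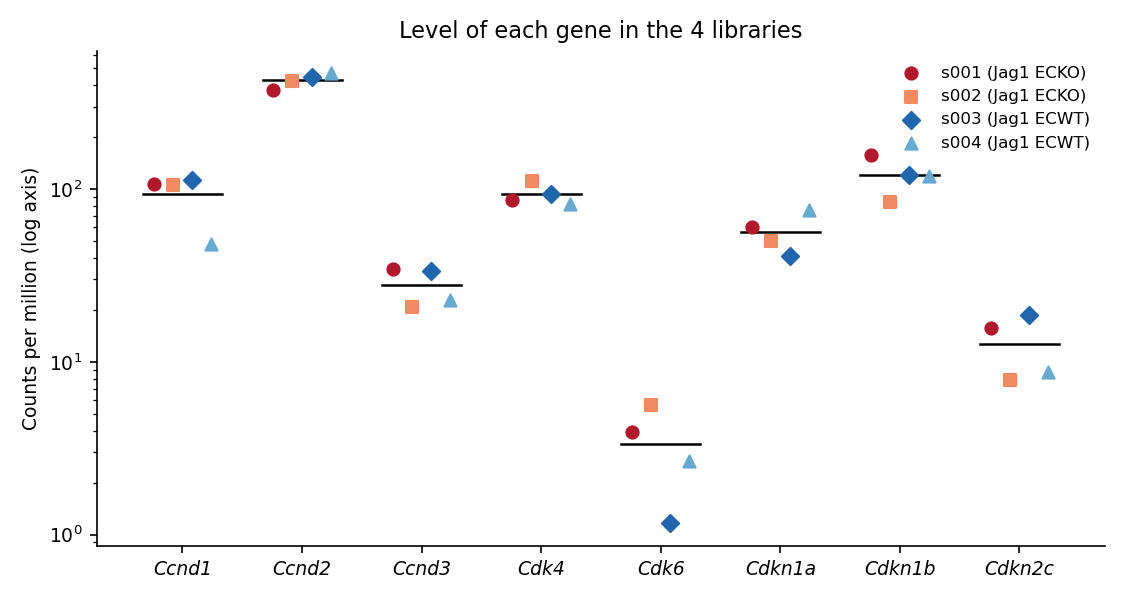
Level of each gene in counts per 1000000 (log axis) in the 4 libraries, with a symbol for each library and a bar at the mean. Ccnd2 stands above the other genes in every library, and Ccnd1 of s004, at 48.3 CPM, lies below the other 3 libraries.

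The order by mean CPM was Ccnd2, Cdkn1b, Cdk4, Ccnd1, Cdkn1a, Ccnd3, Cdkn2c and Cdk6. Ccnd2 exceeded Cdkn1b in all 4 libraries, by 2.38 to 5.00 times. Cdkn1b was above Cdk4 in 3 of 4 libraries, Cdk4 above Ccnd1 in 2 of 4 and Ccnd1 above Cdkn1a in 3 of 4, so these neighbours did not keep their order beyond the spread between libraries. Cdkn1a, Ccnd3, Cdkn2c and Cdk6 followed each other in that order in all 4 libraries.

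Ccnd1 and Cdkn1a were spread unevenly over cells. If every cell of a library transcribed a gene at the same rate for its depth, Ccnd1 would have given a count in 40.5 ± 11.7% of cells (SD, n = 4); it did so in 27.1 ± 6.82%, which is 0.67 of that share. For Cdkn1a the expected share was 27.9 ± 5.83% and the observed share 17.1 ± 2.64%, a ratio of 0.61. The ratio stayed between 0.63 and 0.73 for Ccnd1 and between 0.57 and 0.71 for Cdkn1a in the single libraries.

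Cdk4 and Cdkn1b lay nearer to an even spread, with ratios of 0.87 and 0.83. The ratio nears 1 by construction where nearly all or few cells are expected to have a count, so those of Ccnd2, Ccnd3, Cdk6 and Cdkn2c are not set beside these. Over the 2629 genes with a mean of 50 to 200 CPM, a range that holds Ccnd1, Cdk4, Cdkn1a and Cdkn1b, the median ratio was 0.89. Of these genes 1.94% had a lower ratio than Ccnd1 and 1.26% a lower one than Cdkn1a, against 33.6% for Cdk4 and 14.1% for Cdkn1b. Correspondingly, 52 cells with 3 or more counts held 54.1% of the Ccnd1 counts and 34 such cells held 52.7% of the Cdkn1a counts, both from all 4 libraries. These shares are a description, with no test, and Ccnd1 and Cdkn1a were also the only members among the 2000 most variable genes of the data.

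**Figure D2:**
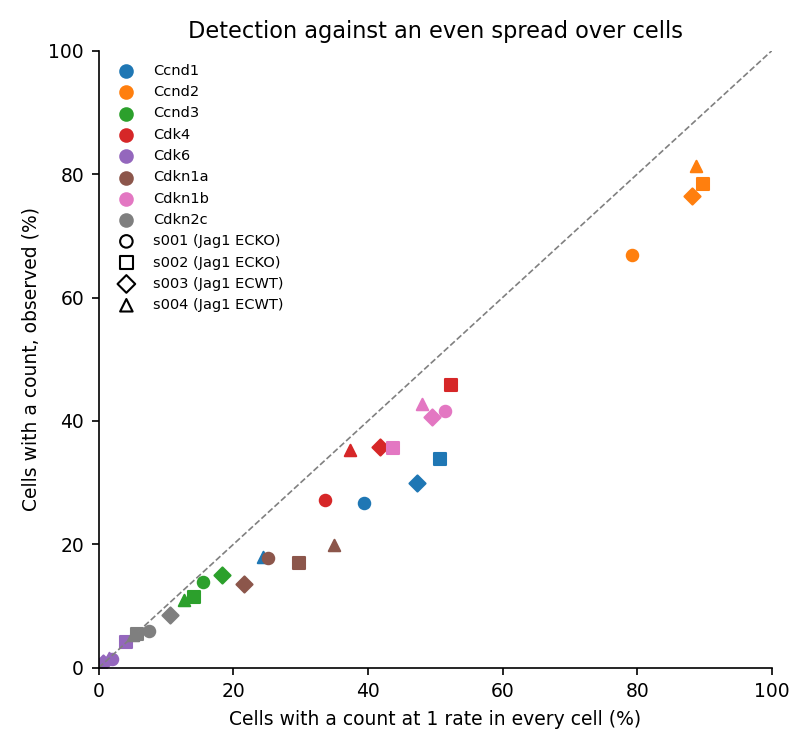
Percent of cells with a count (vertical axis) against the percent expected at 1 rate for all cells of a library given their depth (horizontal axis), with colour for the gene and symbol for the library. Points on the dashed line would be spread evenly; Ccnd1 (ratio 0.67) and Cdkn1a (ratio 0.61) lie farther below it than Cdk4 (0.87) and Cdkn1b (0.83).

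To set the more evenly spread Cdk4 beside Cdkn1a, the 160 bases upstream of their annotated starts are printed here from RefSeq (build GRCm38.p6), 5′ to 3′ all on the plus strand. RefSeq windows were matched for 6 of the 8 genes, Ccnd3, Cdk4, Cdk6, Cdkn1a, Cdkn1b and Cdkn2c, with 9 starts in all. Capitals mark the GC box GGGCGG (on the other strand it reads CCGCCC), the E-box letters CACGTG, the start-site letters TATAA and the palindrome ACATGT. All were searched on both strands over 250 bases upstream of a start, and their matches do not overlap in the stretches shown. The regions shown are chr10:127063375-127063534 for Cdk4, chr17:29090819-29090978 for the upstream start of Cdkn1a and chr17:29093609-29093768 for its downstream start.
Cdk4: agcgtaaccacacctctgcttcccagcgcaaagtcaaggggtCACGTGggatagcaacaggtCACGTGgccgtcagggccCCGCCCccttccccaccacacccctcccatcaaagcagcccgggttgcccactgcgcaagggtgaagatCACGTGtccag
Cdkn1a, upstream start: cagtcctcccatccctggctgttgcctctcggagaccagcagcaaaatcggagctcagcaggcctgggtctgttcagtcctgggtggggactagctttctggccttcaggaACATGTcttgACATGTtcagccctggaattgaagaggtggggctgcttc
Cdkn1a, downstream start: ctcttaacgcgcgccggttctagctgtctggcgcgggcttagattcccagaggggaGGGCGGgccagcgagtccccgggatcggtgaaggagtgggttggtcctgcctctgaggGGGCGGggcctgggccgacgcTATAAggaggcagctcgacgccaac

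The Cdk4 window of 250 bases held CACGTG, which factors such as MYC bind, 4 times, of which 3 fall in the stretch shown; 6.02% of the 32851 windows hold it at least once. GGGCGG, the GC box, is found in 32.7% of windows and TATAA in 22.8%; the downstream start of Cdkn1a held 2 of the first and 1 of the second, and its upstream start held 1 of the second at -227, outside the stretch shown. Cdkn1a is a textbook target of p53, so the consensus p53 element was searched first, with every base required to match. In this form 3 of 32851 windows held it and 0 of the 9 windows of these genes. That count does not show that a p53 element is absent. The upstream Cdkn1a stretch shown holds a near match, spanning its 2 ACATGT, that differs from the consensus at 1 base. ACATGT, letters that such an element may hold, was added after the Cdkn1a sequence had been read. It occurs in 4.58% of windows and at least 2 times in 0.247%, the upstream Cdkn1a start among them. These are matches of letters only; binding was not measured.

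The next question was how drivers and brakes are combined in the same cell. Drivers made up 72.2%, 82.4%, 79.2% and 75.5% of the member counts of s001 to s004, a mean of 77.3 ± 4.41% (SD, n = 4). Ccnd2 alone gave 61.9% to 75% of the driver counts, and Cdkn1b 58.4% to 67.6% of the brake counts. Without Ccnd2 the driver share dropped to 49.8%, 63.1%, 57.3% and 43.5%, so that brakes were level with or above the drivers in s001 and s004.

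Cells with counts of both kinds were the most frequent class in s001, s003 and s004, at 47.5%, 50% and 50.8%; in s002 they were 44.1% and cells with a driver only 45.8%. Cells with a brake count and no driver count came to 6.93%, 4.24%, 2.86% and 5.28%. Drivers outnumbered brakes in 66.8%, 77.5%, 77.9% and 76.4% of cells, and brakes outnumbered drivers in 9.29% to 12.9%.

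Drivers and brakes neither excluded nor favoured each other by more than the spread between libraries. Before any correction for depth, cells with a brake count had a driver count more often (87.3% against 80.4%, 91.2% against 88.5%, 94.6% against 83.3% and 90.6% against 86.1% in s001 to s004). The brake-positive cells were also deeper, with medians of 4739 against 3829 counts in s001 and 5932 against 4174 in s004. With every cell thinned to 2500 counts, which kept 792 cells and left out 13, 2, 8 and 9 shallower ones, the driver share was 73.6% in brake-positive and 73.0% in brake-negative cells. The difference in s001 to s004 was 0.33, -2.58, 3.28 and 1.57 percentage points, a mean of 0.65 ± 2.47 points.

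**Figure D3:**
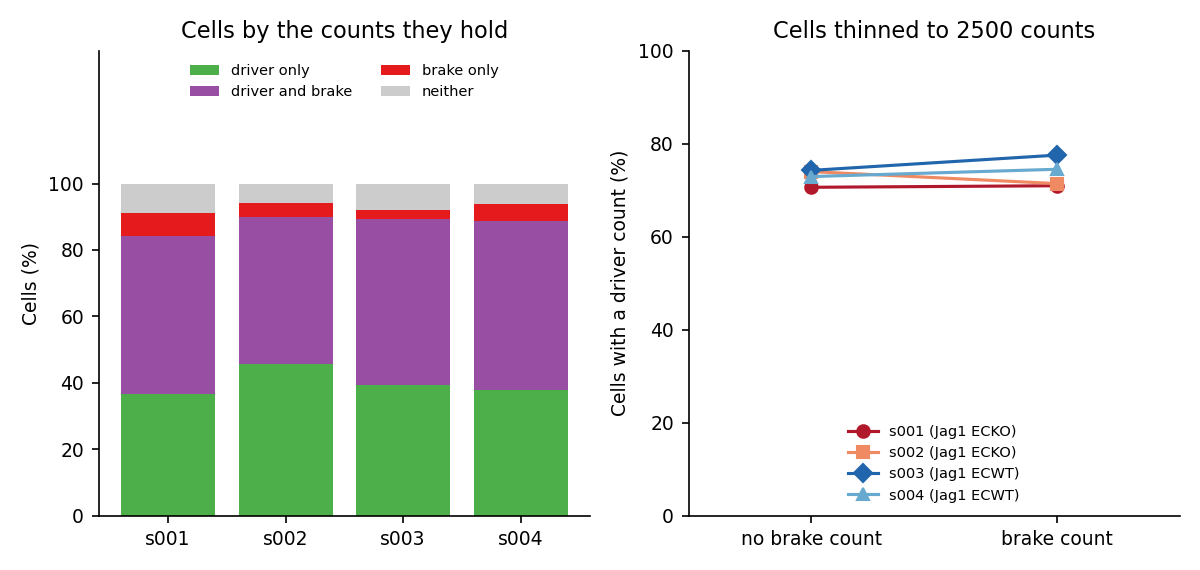
Left, percent of the cells of each library that hold counts of a driver, a brake, both or neither. Right, percent of cells with a driver count among cells without and with a brake count after thinning to 2500 counts, with a line for each library; the lines lie between 70.6% and 77.6% and do not share a direction.

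In all, 20 combinations of drivers, of brakes or of both were compared in the same way, all as descriptions. Ccnd1 with Ccnd3 was the only pair with the same direction in all 4 libraries: Ccnd1 was more frequent in Ccnd3-positive cells by 19.3, 0.60, 1.40 and 4.03 points in s001 to s004 (mean 6.33 ± 8.76 points), with 9.56 to 15.9 Ccnd3-positive cells expected per library after thinning. Ccnd1 was less frequent in Ccnd2-positive than in Ccnd2-negative cells (difference -9.56 points in s001, -4.82 in s003 and -1.84 in s004) and more frequent in s002 (0.75 points; mean -3.87 ± 4.42 points). Both cyclins together were counted in 16.6% of all kept cells without Ccnd3 and in 3.88% with it, and 9.83% of cells held more Ccnd1 than Ccnd2 counts. Those cells made up 13.9% of s001, 10.6% of s002, 12.1% of s003 and 4.47% of s004.

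Where Ccnd1 was high was followed over 14 clusters of cells, built without the 8 genes. Of these, 13 were EC-like (794 cells) and 1 was fibroblast/VSMC-like (30 cells, led by Myl9, Lum and Myh11). The EC marker counts used for these names follow an earlier description of the same data. Since clusters and levels come from the same cells, differences between clusters are given with no test.

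The balance of the D cyclins was turned over in cluster 10, an EC-like group of 32 cells led by Lrg1, Fabp4 and Pde2a. Ccnd1 reached 327 CPM there and Ccnd2 124 CPM, so that Ccnd1 gave 58 of the 80 counts of both genes, or 72.5% (exact 95% binomial interval 61.4% to 81.9%, counting error only). Outside this cluster the share was 15.7%, with 82.1 CPM of Ccnd1 and 441 CPM of Ccnd2. Cluster 10 thus held the highest Ccnd1 and the lowest Ccnd2 of the 14 clusters.

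The turn was carried by s001 and s003 and was not seen in s004. Counts of Ccnd1 and Ccnd2 in cluster 10 were 39 and 4 in the 18 cells of s001, 7 and 7 in the 9 cells of s002, 10 and 0 in the 3 cells of s003, and 2 and 11 in the 2 cells of s004. A single cell of s001 gave 20 of the Ccnd1 counts; without it Ccnd1 stood at 245 CPM in the cluster. All 10 EC markers were kept in these cells. Their markers of capillary or lipid-handling EC summed to 5251 CPM against 67.9 CPM over the EC-like clusters other than 10 and 13. Lymphatic markers summed to 480 against 45.2 CPM. Few genes of these lists were raised to 3 or more times the level of all other cells. Of the 7 capillary markers 2 were raised and 2 had 0 counts, and of the 5 lymphatic markers 1 was raised. The part of these cell types in the result was not tested. Cluster 13, led by Gpihbp1, Igfbp3 and Cd36, carried still more of the capillary markers (7024 CPM in 17 cells, with 5 of the 7 raised). It kept the usual balance, with 86.7 CPM of Ccnd1 and 361 CPM of Ccnd2.

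Outside cluster 10, Ccnd1 was highest in clusters 4 (led by Cxcl1, Dcdc2a and Atp1b1) and 9 (Coch, Adra2a and Fbln5), at 165 and 149 CPM. In cluster 4 it was 173, 205 and 184 CPM in s001 to s003 and 44.4 CPM in s004. In cluster 9 it was 160, 170 and 116 CPM in s002 to s004, and not detected in the 2 cells of s001. It was lowest in cluster 5 (Aqp1, Ret and Igfbp5), at 32.4 CPM. Ccnd2 differed less across the EC-like clusters other than 10, between 348 and 506 CPM.

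Cdkn1a followed another division of the cells. It was highest in cluster 5 at 133 CPM, then in clusters 7 (Hbegf, Pthlh and Klk10) at 115 CPM and 8 (Beta-s, Plat and Mira) at 109 CPM. In cluster 7 it was above the other cells of each library but s003 (38.3 against 41.2 CPM). In cluster 8 it was 128 CPM in s001, which gave 28 of the 41 cells, 0 in s002 and s003, and 234 CPM in the 4 cells of s004. Cdkn1a was lowest in clusters 3 (Sfrp2, Thbs1 and Gdf6) at 16.3 CPM, 9 at 20.3 CPM and 4 at 23.4 CPM. In clusters 3 and 4 it was below the other cells in all 4 libraries, but cluster 9 in s004 was at 116 against 74.3 CPM. The levels of Cdkn1a and Ccnd1 had no common order over the clusters. Clusters 4 and 9 held much Ccnd1 and little Cdkn1a and cluster 5 the reverse, but clusters 0, 2 and 3 were low in both (Ccnd1 at 40.3, 54.5 and 54.4 CPM, Cdkn1a at 35.8, 26.6 and 16.3 CPM), and cluster 10 held both at 327 and 90.3 CPM. These values pool the libraries; Ccnd1 in clusters 0 and 2 was below the other cells of its library in all 4, and in cluster 3 in all but s003, where it was 167 against 108 CPM. In the 3 libraries with at least 4 cells of cluster 5, Cdkn1a was at 156, 178 and 86.6 CPM there (s002 to s004), each above the other cells of its library. These rest on few cells: without the cell of most counts in each, which held 7, 9 and 3 counts, they were 111, 67.5 and 62.6 CPM, against 41.4, 26.9 and 74.8 CPM in the other cells, so that s004 no longer stood above. The whole cluster was at 108 CPM without the s003 cell. Cluster 1, at 91.4 CPM, rested on the cell with 25 counts and stood at 45.9 CPM without it.

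Cdkn1b and Cdk4 varied less. Cdkn1b ranged from 61.6 CPM in cluster 1 (Vcan, Nog and Igf2) to 175 CPM in cluster 10, and in clusters 3 and 7 was above the other cells of its library in 4 of 4 libraries. Cdk4 ranged from 57.8 CPM in cluster 13, from 4 counts, to 141 CPM in cluster 10. The fibroblast/VSMC-like cells had more Ccnd2 (658 CPM, 95% Poisson interval 566 to 760) than the EC-like cells (417 CPM, 399 to 436), and more Cdkn1a (97.6 against 55.6 CPM). Library s001 went against both: its 8 fibroblast/VSMC-like cells had 374 CPM of Ccnd2 against 377 CPM in its EC-like cells, and 15.0 against 63.2 CPM of Cdkn1a. A single cell of s002 held 31 of the 182 Ccnd2 counts of this cluster, which stood at 579 CPM without it. Cdkn2c gave 0 counts in them, which allows up to 13.3 CPM, so a difference from the 12.1 CPM of EC-like cells was not detectable at this depth.

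**Figure D4:**
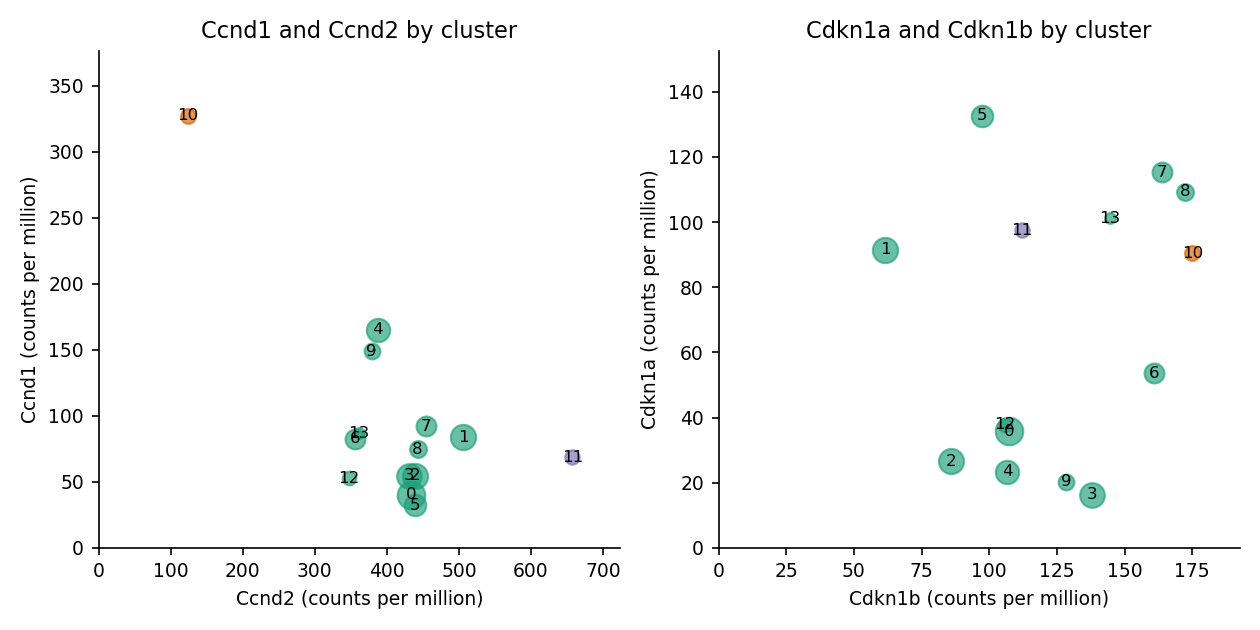
Left, Ccnd1 against Ccnd2, and right, Cdkn1a against Cdkn1b, in counts per 1000000, with a circle for each numbered cluster whose area grows with its number of cells. Cluster 10 (orange) stands alone with 327 CPM of Ccnd1 and 124 CPM of Ccnd2; cluster 11 (violet) is fibroblast/VSMC-like; Cdkn1a is highest in cluster 5.

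Cells were also ranked in each library by their share of dissociation response genes, and the 67, 78, 46 and 82 cells with the highest and with the lowest share in s001 to s004 were compared. Cdkn1a was higher in the cells with the highest share in s002 (94.0 against 16.4 CPM), s003 (45.6 against 22.6) and s004 (103 against 55.4) and lower in s001 (39.8 against 73.9). Ccnd1 was lower in the cells with the highest share in all 4 libraries, at 68.3 against 105, 83.5 against 113, 83.6 against 142 and 50.5 against 59.7 CPM. Whether handling of the tissue has a part in the levels of Cdkn1a or Ccnd1 was not tested.

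Few cells showed the genes of division itself. Counts of at least 3 of 18 G2/M genes were found in 39 cells, with 0, 13, 8 and 18 of them in s001 to s004, and in 13 cells when Hmmr, which had a count in 24.8% of all cells, was left out; this threshold was set during the work. In the 39 cells Ccnd1 stood at 112 CPM (95% Poisson interval 77.9 to 155), against 89.2 CPM (80.9 to 98.0) in the others. Cdkn1b stood at 79.8 CPM (51.7 to 118) against 117 CPM (108 to 127). These levels pool the libraries, which give unequal shares of the 39 cells. Within s002, s003 and s004 Ccnd1 stood at 107, 232 and 44.3 CPM in such cells, from 14, 16 and 5 counts, against 106, 102 and 48.6 CPM in the others. Cdkn1b stood at 68.5, 102 and 79.7 CPM, from 9, 7 and 9 counts, against 85.6, 123 and 122 CPM. Cdkn1b was thus lower in such cells in s002, s003 and s004, while Ccnd1 was higher in s002 and s003 and lower in s004. These values rest on few counts and no test was run. The pooled intervals of each gene overlap, which does not decide whether such cells differ.

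The study's question was what loss of Jag1 in EC changes, and none of the 8 genes passed the test between the labels. Counts were summed over the kept cells of each library, and 7 of the 8 passed the filter on low counts, all but Cdk6. By edgeR's quasi-likelihood test 0 of these 7 had an adjusted p below 0.05, beside 0 of 9730 genes tested (0%); at an unadjusted p below 0.05 there were 0 of the 7 and 465 genes (4.78%), and DESeq2 also called 0, with 159 genes below 0.05 unadjusted. In simulated data of this size, drawn with 1 common spread for all genes, the test recovered 92% of genes changed by 2 on the log2 scale. It recovered 35.4% of those changed by 1. In the measured data Jag1, at a log2 difference of 1.96, did not pass (adjusted p = 0.428 by edgeR). The simulated shares may therefore be too high for these libraries, and smaller differences would mostly be missed.

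Of the 7 genes that passed the filter Ccnd1 had the largest difference, 0.48 on the log2 scale (SE 0.33, adjusted p = 0.901 by edgeR), higher under the Jag1 ECKO label in the mean, with overlapping libraries. It rested on s004: without that library the difference was -0.02. Ccnd2 was lower in both Jag1 ECKO libraries than in both Jag1 ECWT libraries, by a log2 difference of -0.17 (SE 0.18, adjusted p = 0.925 by edgeR). Such a split without overlap and with the Jag1 ECWT label higher was seen in 19.4% of all genes tested, and in either direction in 35.4%. Cdk6, at 3.94 and 5.62 against 1.16 and 2.68 CPM, rested on 4, 10, 1 and 4 counts, from which no order between libraries can be read. It had too few counts for the edgeR filter; DESeq2, run without that filter, gave it a log2 difference of 1.30 (adjusted p = 1.00).

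The remaining values were small beside their errors. The log2 difference was 0.21 for Cdk4 (SE 0.22), -0.02 for Ccnd3 (SE 0.35), -0.12 for Cdkn1a (SE 0.31), 0.003 for Cdkn1b (SE 0.27) and -0.19 for Cdkn2c (SE 0.54), with adjusted p between 0.925 and 0.999 by edgeR. The driver share of member counts had the same mean under both labels, 77.3%.

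**Figure D5:**
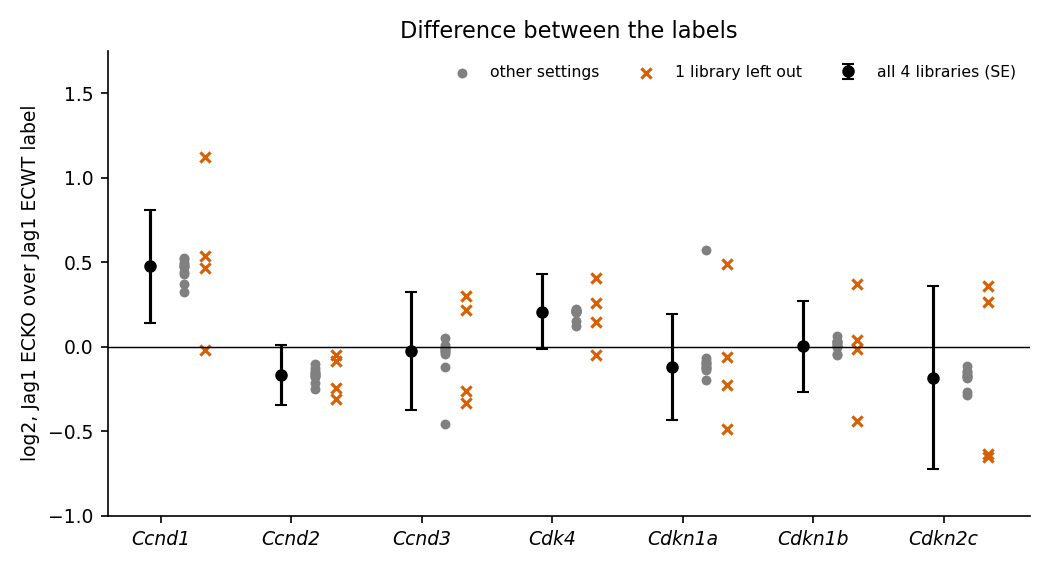
Log2 difference of each gene, Jag1 ECKO over Jag1 ECWT label, with its SE (black), under other settings (grey) and with 1 library left out (orange crosses). Ccnd1 goes from -0.02 to 1.12 when libraries are left out, and Ccnd2 stays below 0 in all settings shown.

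The genes around the members were read from lists chosen with earlier results of these data known. Of 30 other G1 genes, such as the retinoblastoma and E2F families, 18 were tested and 0 passed; 5 were higher and 13 lower under the Jag1 ECKO label, with a median of -0.22 beside -0.001 over all genes. The most abundant of them, Gsk3b, whose kinase marks cyclin D1 for destruction, gave 106, 111, 144 and 127 CPM, and Cdkn1c (p57), a relative of p21 and p27, 56.1, 59.6, 52.4 and 84.4 CPM. Of 31 S and G2/M genes, 15 were tested and 0 passed; 13 were lower, with a median of -0.30. Pcna, the sliding clamp of DNA polymerase, stood at 51.2, 55.6, 75.6 and 77.7 CPM and Hmmr, a spindle protein, at 11.8, 45.0, 69.8 and 79.7 CPM.

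Of 17 p53 target genes beside Cdkn1a, 15 were tested and 0 passed, with 8 higher and 7 lower and a median of 0.04; Phlda3, an inhibitor of AKT, gave 132, 120, 128 and 119 CPM and Fas, a death receptor, 92.5, 67.5, 113 and 111 CPM. Of 12 genes of shear stress and Notch signalling upstream of the brakes, 11 were tested and 0 passed, with 4 higher and 7 lower and a median of -0.06; Klf2 and Klf4, which respond to shear stress, stood at 462 and 437 CPM in s001, 234 and 205 in s002, 620 and 431 in s003 and 306 and 257 in s004. Of 20 dissociation response genes, 18 were tested and 0 passed, and 17 of them were higher under the Jag1 ECKO label, with a median of 0.44; Rhob and Jun, which are induced within minutes of stress, stood at 435 and 516 CPM in s001, above the other 3 libraries.

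No gene followed any of Ccnd1, Ccnd2, Ccnd3, Cdk4, Cdkn1a and Cdkn1b closely from cell to cell. Correlation within libraries, partial on depth, was computed between each of these 6 members, those seen in at least 10% of cells, and the 6667 genes seen as often, over the 140 to 246 cells of a library. The most like Cdkn1a were Igfbp5 (mean r = 0.20 over 4 libraries), Cryab and Dusp8, and the most like Ccnd1 were Fabp4 (0.16), Myh9 and Gpm6a. For Ccnd2 these were Cldn5, Plec and Fgfr3, and over all members the mean r stayed between 0.13 and 0.20. In counts this sparse, values of that size are no finding, and Fabp4 is 1 of the genes that lead cluster 10.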

How the data were processed

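Single CD31-sorted aortic cells were profiled by SORT-seq in 4 libraries. The authors aligned reads to GRCm38 with STAR and, per the labels, used Seurat 3.1; the counting tool and its use of strand are not given in the sources used here. The authors deposited estimated counts of molecules per gene and cell, UMI numbers corrected for chance repeats and not normalized between cells; whole UMI numbers were recovered from them to within 4.09e-12. Estimated counts were rounded to whole numbers, and cells with more than 1200 genes were kept, 32 of them below 2500 counts. The median depth of s001 to s004 was 4212, 6518, 5577 and 5216 counts per cell; intervals cover counting error only.

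CPM are counts of a library or cluster per 1000000 of its counts. Clustering used Seurat 5.3.0 under R 4.3.3 (2000 variable genes without the 8 members, 12 principal components, resolution 2.3, the lowest on a grid that gave 14 clusters). With 20 CPM added to each level, a marker at 3 or more times the level of all other cells was counted as raised; 6 raised fibroblast and VSMC markers named a cluster fibroblast/VSMC-like, and 7 EC markers above 0.333 of their mean EC-like. No doublet caller was run. Counts summed per library were tested with edgeR 4.0.16 (filterByExpr, TMM, quasi-likelihood test, Benjamini-Hochberg adjustment over 9730 genes, threshold 0.05), with DESeq2 1.42.0 as an alternative, and the steps were tested on simulated data. Levels, clusters and co-detection carry no test. For thinned cells, the share with a count was computed exactly from the hypergeometric distribution. The members and lists were chosen with earlier results of these data known. Genes named are the 8 members, Jag1, the 2 most abundant of each list, the 3 genes of highest fold of a cluster and the 3 most correlated with a member. The G2/M threshold, the comparison by dissociation share and the range of 50 to 200 CPM were chosen during the work. Alternatives changed the cells, scaling, filter, tool, depth and clustering and left out each library. Figures were drawn with matplotlib 3.10.9.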

Additional observations from a re-analysis of the deposited data

Results flagged for a closer look

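Of the 20 combinations whose co-detection was compared in thinned cells, 4 had differences above 0 in both libraries of a label and below 0 in both of the other; that the labels differ was not tested, and with 4 libraries such a split of signs alone does not show a difference. The share of Ccnd1-positive cells in Cdkn1a-positive cells differed from that in Cdkn1a-negative cells by -5.55 and -12 percentage points in s001 and s002 and by 13.2 and 0.81 points in s003 and s004, so that the Jag1 ECKO mean was 15.8 points below (-15.8) the Jag1 ECWT mean. The s003 value rests on about 9 Cdkn1a-positive cells after thinning. The same difference of the label means was -4.32 points for Ccnd1 with Cdkn2c and -9.94 points for Ccnd3 with Cdkn2c, each from fewer than 7 Cdkn2c-positive cells per library. For Cdkn1a with Cdkn1b it was -6.27 points, from -0.50 and -2.99 in s001 and s002 and 4.15 and 4.90 in s003 and s004.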

How the results depend on the processing

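In no alternative did a member pass between the labels (adjusted p of 0.334 or more). The count of genes called over all genes was 127 without the low-count filter against 0 with it, and 0 to 417 with 1 library left out: 196 without s001, 417 without s002 and 0 without s003 or s004, each with the lone library assumed to vary like the other label. With a library left out the log2 difference ranged from -0.022 to 1.12 for Ccnd1, from -0.33 to 0.30 for Ccnd3, from -0.051 to 0.41 for Cdk4, from -0.49 to 0.49 for Cdkn1a, from -0.44 to 0.37 for Cdkn1b and from -0.65 to 0.36 for Cdkn2c, so that these 6 could turn. It was negative for Ccnd1 and positive for Cdkn1a without s004. It also turned for Ccnd3 over all deposited cells (0.012) and without the cluster led by dissociation genes (0.049), for Cdkn1a in thinned cells (0.57), and for Cdkn1b without high-count cells (-0.049) or without cluster 10 (-0.046). Ccnd2 kept its direction in 15 of 15 alternatives, from -0.31 to -0.049. The causes were not tested. The driver share ranged from 75.6% to 79.0% with a library left out, and the co-detection difference from -0.23 to 1.73 points; without thinning it was 6.32 points. At resolution 0.8 (9 clusters) the cluster with most Ccnd1 held 49 cells, with Ccnd1 at 57.7% of the counts of Ccnd1 and Ccnd2. That share was 72.5% with another seed or with the members kept among the variable genes. Each of these was run at resolution 2.3 and gave 13 clusters. The alternative without cluster 10 and that without thinning were added after seeing the data. No paired analysis was possible because the titles and characteristics give no replicate number shared between the labels. Cdk6 and Cdkn2c, at 19 and 59 counts, are too shallow for differences between libraries.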
